A study of Rattus norvegicus with 12 samples.

Results

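The miRNA content of the rat retina was compared with that of the choroid at postnatal day 17 (P17), separately in pups with oxygen-induced retinopathy (OIR) and in control pups (CTL). The comparison used every library of that age, which made 4 of the 12 small RNA libraries of the series, and within them the tables of miRNAs, piRNAs and tRNAs. Of 750 miRNA entries listed in the series, 730 were listed in at least 1 P17 library and 591 in all 4. All pups were Sprague Dawley rats. CTL pups were raised in room air throughout, whereas OIR pups were kept in oxygen that alternated daily between high and low levels until P14 and then returned to room air until P17, the age at which abnormal vessels grow in this model. The 4 groups were the CTL retina, the OIR retina, the CTL choroid and the OIR choroid, with 1 library each, which per the study covers several rats. Its methods speak of pooled libraries and a caption of a pool of rats, so the step at which rats were pooled is unclear. The pooling hides the spread between animals, and the choroid was a dissected layer whose cell content is not described in the sources used here. Libraries of P7 and P14, prepared in the same way, are given only where the P17 values are set beside them.

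The retina is neural tissue, dominated in rodents by rod photoreceptors, with inner neurons, Müller glia and a sparse set of capillaries. The choroid is the vascular and connective tissue layer behind it, made of endothelial cells, pericytes and smooth muscle, fibroblasts, melanocytes and resident leukocytes, and a dissected choroid usually carries retinal pigment epithelium. A miRNA is a short RNA that guides Argonaute proteins to messenger RNAs, largely through its seed, bases 2 to 8 from the 5′ end, so that miRNAs with 1 seed share many targets. Several miRNAs are strongly restricted to certain cells, which makes a retina and a choroid easy to tell apart by miRNA content.

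The mature sequences below are those on which the comparison turned, from RefSeq (build GRCr8), 5′ to 3′ with the seed in capitals. The first set holds miRNAs that were high in the retina. The miR-182, miR-96 and miR-183 hairpins lie within 10000 bases of their neighbours in GRCr8 and their seeds differ from each other by few bases.
miR-182: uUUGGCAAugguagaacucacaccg
miR-96-5p: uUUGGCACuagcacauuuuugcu
miR-183-5p: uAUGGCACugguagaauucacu
miR-9a-5p: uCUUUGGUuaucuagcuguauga
miR-129-5p: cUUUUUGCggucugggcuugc
miR-7a-5p: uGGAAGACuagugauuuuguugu
miR-384-5p: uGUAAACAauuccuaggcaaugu
miR-190b-5p: uGAUAUGUuugauauuagguu
miR-29c-3p: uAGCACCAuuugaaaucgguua
The second set holds miRNAs that were high in the choroid. miR-1-3p, miR-1b and miR-206-3p share 1 seed, as do miR-152-3p and miR-148a-3p.
miR-126a-3p: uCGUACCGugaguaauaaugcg
miR-143-3p: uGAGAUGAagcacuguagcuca
miR-145-5p: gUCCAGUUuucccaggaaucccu
miR-199a-5p: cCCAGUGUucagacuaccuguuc
miR-199a-3p: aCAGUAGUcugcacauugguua
miR-1-3p: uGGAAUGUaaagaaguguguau
miR-1b: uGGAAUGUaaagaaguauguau
miR-206-3p: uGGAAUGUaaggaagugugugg
miR-205: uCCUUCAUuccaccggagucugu
miR-203a-3p: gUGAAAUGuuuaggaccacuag
miR-152-3p: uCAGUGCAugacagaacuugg
miR-148a-3p: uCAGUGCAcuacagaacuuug
miR-27a-3p: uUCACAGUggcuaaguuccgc
The third set is shown because miRNAs with 1 seed did not all go the same way, such as miR-29a-3p beside miR-29c-3p, miR-30e-5p beside miR-384-5p, and members of the let-7 and miR-204 families.
miR-29a-3p: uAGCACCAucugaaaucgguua
miR-30e-5p: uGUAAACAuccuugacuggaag
let-7c-5p: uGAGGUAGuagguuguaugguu
let-7i-5p: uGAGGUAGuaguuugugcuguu
let-7f-5p: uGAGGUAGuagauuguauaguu
let-7g-5p: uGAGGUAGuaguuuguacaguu
miR-204-5p: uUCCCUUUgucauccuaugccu
miR-211-5p: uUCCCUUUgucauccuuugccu
The last set holds entries whose sequence is the reverse complement of an abundant miRNA listed above, to which the section on opposite-strand entries returns.
miR-3553: cAGUGAAUucuaccagugccaua
miR-3571: uACACACUucuuuacauuccaua
miR-9b-3p: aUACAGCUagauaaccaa
RefSeq held a mature sequence of the same name for 651 of the 730 entries and for 93 of the 105 that reached 1000 RPM. miR-124-3p, miR-200a-3p, miR-133a-3p/miR-133b-3p and miR-598-3p are among those named without a sequence.

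Each library was counted in unique molecular identifiers (UMIs), which count a captured molecule once. miRNA UMIs came to 13370397 in the CTL retina, 10546251 in the OIR retina, 14228453 in the CTL choroid and 10124189 in the OIR choroid. Levels are UMIs per 1000000 miRNA UMIs of the library (RPM), and each difference is a retina to choroid ratio, or its inverse, with an exact 95% interval in parentheses that covers counting error only. An entry under 10 UMIs is not listed in a file and was set to 10 UMIs as a bound. With 1 library per group there is no test within an arm. Tissues were tested with edgeR's quasi-likelihood test of the tissue term across the 4 libraries with arm as a covariate. Its p-values set the tissue difference against its spread between the arms and not between animals. That spread has 1 residual degree of freedom per miRNA, and the fit shares it across miRNAs, so it is not each miRNA's own. In these bulk samples, fewer cells of a type and less RNA per cell cannot be told apart.

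Both tissues carried their own markers. The markers and the lists below were chosen with earlier results of these data known, so they are not independent evidence of tissue identity. Of the 5 retinal markers, miR-182, miR-183-5p, miR-96-5p, miR-124-3p and miR-9a-5p all stood at least 10-fold higher in the retina in both arms. Of the 8 choroidal markers, the endothelial miR-126a-3p and miR-126a-5p, the mural miR-143-3p and miR-145-5p and the mesenchymal miR-199a-3p and miR-214-3p were higher in the choroid, while the pigment epithelial miR-204-5p and miR-211-5p were under 2-fold apart in both arms and leaned in opposite directions. Each tissue also held the markers of the other at a lower level, and the choroid held those of striated muscle and surface epithelium, as given below. Their part in the ratios was not tested.

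At a 2-fold threshold, more entries were higher in the choroid than in the retina. In CTL, 18.6% of 716 entries were at least 2-fold higher in the retina and 23.9% were at least 2-fold lower. The OIR shares were 16.4% and 28% of 706. Of the 692 entries measured in both arms, 99 (14.3%) were past 2-fold towards the retina and 149 (21.5%) towards the choroid in both arms. miR-190b-3p alone passed 2-fold in opposite directions, at 9.05 RPM in the CTL retina, 2.18 RPM in the OIR retina, 2.53 RPM in the CTL choroid and 4.94 RPM in the OIR choroid, on 23 to 121 UMIs. Unlisted entries made up 14 of the CTL and 32 of the OIR counts towards the choroid and 1 of each count towards the retina. The median log2 ratio over all entries was -0.17 in CTL and -0.32 in OIR, and TMM library sizes shifted these by -0.13 and 0.08.

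edgeR called 149 of 698 entries higher in the retina (21.3%) and 176 higher in the choroid (25.2%) at an adjusted p under 0.05. Among the 105 entries that reached 1000 RPM in at least 1 library, 22 were past 2-fold towards the retina and 39 towards the choroid in both arms. For all 61, the smaller of the 2 log2 ratios was larger than the OIR to CTL difference within either tissue. edgeR called all 61, but they were chosen for a like ratio in the same arms, so the calls are not separate evidence. A further 38 stayed within 2-fold in both arms, and 6 passed it in 1 arm only (miR-125a-5p, miR-19b-3p, miR-21-5p, miR-218a-5p, miR-301a-3p and miR-93-5p, named after their values were seen). At 10-fold or more in both arms there were 8 entries towards the retina and 16 towards the choroid among the 105. Refits of the tissue test without 1 library also dropped the arm term and left 1 library for 1 tissue. A call lost in such a refit, below, therefore cannot be put down to the library left out.

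**Figure D1:**
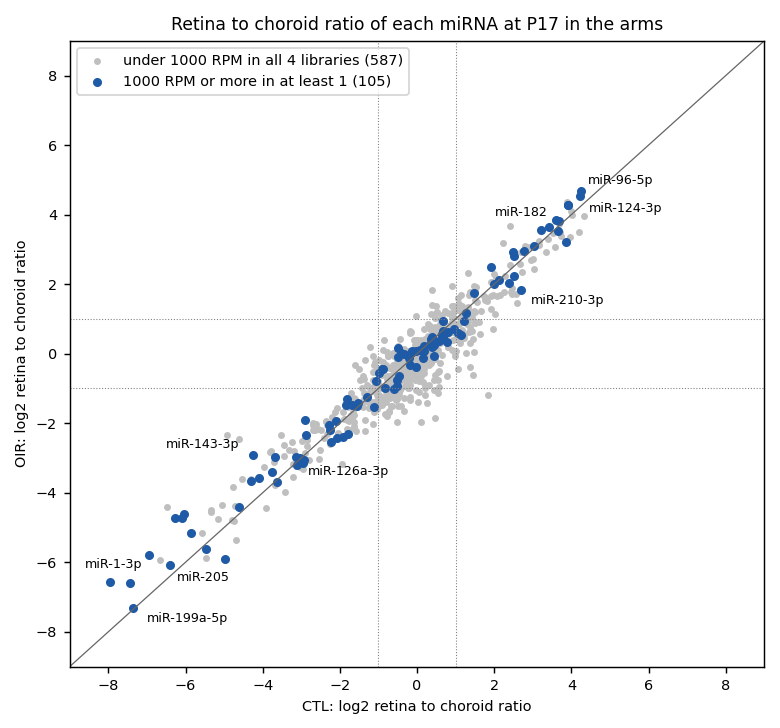
Log2 retina to choroid ratio of each of 692 miRNA entries at P17 in CTL (x axis) and OIR (y axis), with dotted lines at 2-fold and a diagonal where the arms are equal. Entries that reached 1000 RPM (blue) follow the diagonal from miR-199a-5p, at -7.36 in CTL and -7.31 in OIR, to miR-96-5p, at 4.24 and 4.68, and miR-1-3p and miR-143-3p lie above it at the choroid end.

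The retina was the more concentrated tissue. Its 10 most abundant miRNAs held 65.7% of miRNA UMIs in CTL and 65.9% in OIR, against 51.8% and 53.4% in the choroid. miR-182, miR-9a-5p, miR-183-5p and miR-96-5p together held 48.2% of the CTL retina and 47.4% of the OIR retina, and 3.76% and 3.21% of the choroids. In the choroid, miR-126a-3p, miR-125b-5p and miR-199a-3p were the 3 most abundant in both arms. Among the abundant miRNAs of both tissues, miR-16-5p, let-7f-5p, miR-26b-5p and miR-101a-3p were at most 1.30-fold apart in either arm.

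**Figure D2:**
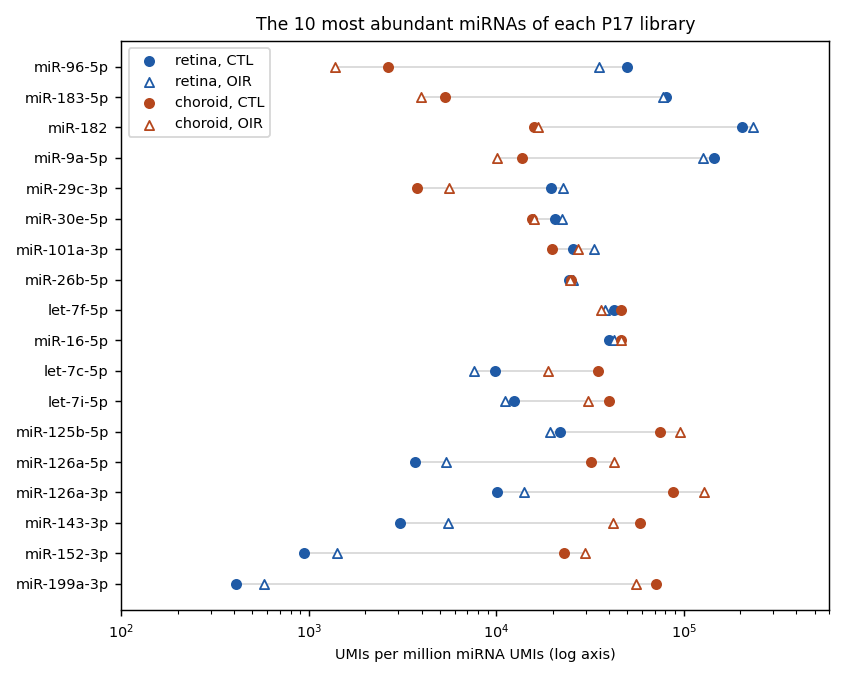
Levels in RPM on a log axis of the 18 miRNAs that were among the 10 most abundant of at least 1 P17 library, in the CTL (circles) and OIR (triangles) retina (blue) and choroid (orange), ordered by the mean log2 ratio. The retina points lie to the right for the 5 uppermost miRNAs, from miR-96-5p to miR-29c-3p, and to the left for the 8 lowermost, from let-7c-5p to miR-199a-3p.

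The photoreceptor cluster held more of the retina than any other list, summing to 336038 RPM in CTL and 347904 RPM in OIR. miR-182, an abundant miRNA of rods and cones, stood at 205163 RPM in the CTL retina, 234300 in the OIR retina, 15898 in the CTL choroid and 16639.8 in the OIR choroid. The retina was 12.9-fold (12.8 to 13.0) higher in CTL and 14.1-fold (14.01 to 14.2) in OIR. miR-183-5p, transcribed with it, stood at 80659 RPM in the CTL retina, 77932 in the OIR retina, 5359 in the CTL choroid and 3993 in the OIR choroid. The ratio was 15.1-fold (14.9 to 15.2) in CTL and 19.5-fold (19.3 to 19.7) in OIR. miR-96-5p, the third member, stood at 49982 RPM in the CTL retina, 35436 in the OIR retina, 2653 in the CTL choroid and 1381 in the OIR choroid. Its ratio of 18.8-fold (18.6 to 19.04) in CTL and 25.7-fold (25.2 to 26.1) in OIR was the highest of any entry past 1000 RPM, with an edgeR log2 difference of 4.43 ± 0.27 (SE) (adjusted p = 0.00051). For each of the 3 the lowest retina library lay over 10-fold above the highest choroid library, and miR-96-5p and miR-183-5p were lower in OIR than in CTL in both tissues. The passenger strands miR-183-3p and miR-96-3p ran the same way, at 30.7 to 202.5 RPM in retinas against 1.69 to 12.9 RPM in choroids. All 5 members were past 2-fold in both arms and called by edgeR, against 14.3% and 21.3% of all entries towards the retina. The median log2 ratio was 3.98 in CTL and 4.10 in OIR.

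Neuronal miRNAs followed. miR-9a-5p, which controls neural progenitors and Müller cell fate, stood at 145887 RPM in the CTL retina, 126461 in the OIR retina, 13679 in the CTL choroid and 10136 in the OIR choroid, so that the retina was 10.7-fold (10.6 to 10.7) higher in CTL and 12.5-fold (12.4 to 12.6) in OIR. Its other strand miR-9a-3p stood at 10310.5 RPM in the CTL retina, 10553 in the OIR retina, 1118 in the CTL choroid and 902 in the OIR choroid. miR-124-3p, the most abundant miRNA of brain neurons and one that represses non-neuronal genes, stood at 5464 RPM in the CTL retina, 4634 in the OIR retina, 294 in the CTL choroid and 198.8 in the OIR choroid. Its ratio was 18.6-fold (18.03 to 19.2) in CTL and 23.3-fold (22.3 to 24.4) in OIR (edgeR log2 difference 4.36 ± 0.27 (SE), adjusted p = 0.00051). Retina and choroid did not overlap for any of these. miR-129-5p, a neuronal miRNA with a U-rich seed, stood at 1675 RPM in the CTL retina, 1473 in the OIR retina, 134 in the CTL choroid and 127.5 in the OIR choroid, and its ratio was close between the arms at 12.5-fold (12.0 to 13.2) and 11.6-fold (10.9 to 12.2). miR-7a-5p, made in neurons and endocrine cells, stood at 5579 RPM in the CTL retina, 5283 in the OIR retina, 969.7 in the CTL choroid and 1118 in the OIR choroid, a smaller gap of 5.75-fold (5.65 to 5.86) and 4.73-fold (4.63 to 4.82), while its near-identical relative miR-7b, at 295 to 388 RPM in the retina, had ratios of 11.8 and 8.41. miR-137-3p, miR-138-5p and miR-153-3p, regulators of synapses and excitability, were 7.39-fold to 13.0-fold higher in the CTL retina and 8.45-fold to 11.2-fold in OIR. miR-132-3p, induced by neuronal activity, stood at 43.8 and 44.6 RPM in the CTL and OIR retina and 17.6 and 8.89 RPM in the choroid. miR-128-3p was less tissue restricted, at 1.75-fold (1.72 to 1.79) and 1.55-fold (1.51 to 1.58). Its edgeR call (adjusted p = 0.0437) was lost without the arm term (adjusted p = 0.058). Of 15 listed entries of the neuronal list, 13 were past 2-fold in both arms, against 14.3% of all entries. edgeR called 14 towards the retina, against 21.3% of all entries. The median log2 ratio was 3.41 in CTL and 3.47 in OIR. miR-212-3p, at 1.48 to 2.39 RPM, was not called (adjusted p = 0.635, edgeR).

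Other retina-high miRNAs lay outside these lists. miR-190b-5p stood at 6936 RPM in the CTL retina, 2161 in the OIR retina, 477 in the CTL choroid and 233 in the OIR choroid. The ratio was 14.5-fold (14.2 to 14.9) in CTL and 9.28-fold (8.89 to 9.68) in OIR, both tissues were lower in OIR, and without the OIR choroid its edgeR call (adjusted p = 0.00066) was lost at an adjusted p of 0.0826. The paralog miR-190a-5p, with the same seed, was 2.41-fold and 2.23-fold higher in the retina. miR-384-5p, which carries the miR-30 seed, stood at 1780.0 RPM in the CTL retina, 1421 in the OIR retina, 313 in the CTL choroid and 202 in the OIR choroid, and its partner strand miR-384-3p was 6.87-fold and 7.73-fold higher in the retina. miR-598-3p was 8.14-fold and 8.63-fold higher, and miR-181a-1-3p 5.65-fold and 7.60-fold. Its opposite strand miR-181a-5p and miR-181b-5p, of the miR-181 family expressed in inner retinal neurons, were each between 3.99-fold and 4.35-fold higher in the retina in both arms. miR-210-3p, the miRNA most regularly induced by hypoxia through HIF-1, stood at 843 RPM in the CTL retina, 1288 in the OIR retina, 131 in the CTL choroid and 362 in the OIR choroid. The retina was 6.41-fold (6.10 to 6.73) higher in CTL and 3.56-fold (3.44 to 3.70) in OIR, and both tissues were higher in OIR. Without the CTL choroid its edgeR call (adjusted p = 0.00228) was lost, at an adjusted p of 0.0761. Its other strand miR-210-5p, at 2.17 to 4.19 RPM, was not called by edgeR (adjusted p = 0.159).

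Vessel miRNAs marked the choroid. miR-126a-3p, made in endothelial cells from an intron of Egfl7 and a promoter of VEGF signalling, stood at 10154 RPM in the CTL retina, 14003 in the OIR retina, 88124 in the CTL choroid and 127802 in the OIR choroid. The choroid was 8.68-fold (8.63 to 8.73) higher in CTL and 9.13-fold (9.08 to 9.18) in OIR (edgeR log2 retina to choroid difference -3.18 ± 0.19 (SE), adjusted p = 0.00051). The other strand miR-126a-5p stood at 3692 RPM in the CTL retina, 5383 in the OIR retina, 32230.1 in the CTL choroid and 42357 in the OIR choroid, with choroid to retina ratios of 8.73-fold (8.65 to 8.81) and 7.87-fold (7.80 to 7.94). Both strands were higher in OIR in both tissues, and the tissue ratio moved little. miR-221-3p was 4.77-fold and 4.51-fold higher in the choroid, while miR-222-3p, at 7.49 to 26.6 RPM, passed 2-fold only in OIR. Its edgeR call (adjusted p = 0.0359) was lost with DESeq2 (adjusted p = 0.245), and in edgeR without the arm term (0.169), without TMM (0.0547) and with reads in place of UMIs (0.059). Of the 6 endothelial entries, 5 were past 2-fold towards the choroid in both arms, against 21.5% of all entries. edgeR called all 6, against 25.2% of all entries towards the choroid. The call of miR-130a-3p (adjusted p = 0.00603, log2 difference -1.36) was lost without the CTL retina (adjusted p = 0.0851) or the OIR choroid (adjusted p = 0.274, log2 difference -0.73). The median log2 ratio was -2.64 in CTL and -2.57 in OIR.

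The mural pair miR-143 and miR-145, made from 1 transcript in smooth muscle and pericytes, differed more in CTL than in OIR. miR-143-3p stood at 3077 RPM in the CTL retina, 5557 in the OIR retina, 58682 in the CTL choroid and 41982 in the OIR choroid. The choroid was 19.1-fold (18.9 to 19.3) higher in CTL and 7.55-fold (7.49 to 7.62) in OIR, since the retina was higher and the choroid lower in OIR. miR-145-5p stood at 88.0 RPM in the CTL retina, 170.2 in the OIR retina, 1499 in the CTL choroid and 2013 in the OIR choroid, with 17.02-fold (16.1 to 18.1) and 11.8-fold (11.3 to 12.4). All 4 mural entries were past 2-fold in both arms and called by edgeR, against 21.5% and 25.2% of all entries towards the choroid. The list median went from -4.17 in CTL to -3.41 in OIR.

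Mesenchymal miRNAs included the pair with the widest gap in OIR. miR-199a-5p, made with miR-214 from an antisense transcript of dynamin 3, stood at 43.5 RPM in the CTL retina, 76.0 in the OIR retina, 7157 in the CTL choroid and 12033 in the OIR choroid. The choroid was 165-fold (152 to 179) higher in CTL and 158-fold (147.8 to 170.0) in OIR. miR-199a-3p stood at 407 RPM in the CTL retina, 579.5 in the OIR retina, 71002 in the CTL choroid and 55969 in the OIR choroid, a gap of 174-fold (169.8 to 179) and 96.6-fold (94.2 to 99.1). Both retina libraries lay far below both choroid libraries for each strand, and miR-214-3p stood at 1.80 and 1.61 RPM in the retina against 64.3 and 43.7 RPM in the choroid. miR-140-3p and miR-140-5p, known from cartilage and fibroblasts, were 2.84-fold to 5.34-fold higher in the choroid. All 6 mesenchymal entries were past 2-fold in both arms and edgeR called 5, against 21.5% and 25.2% of all entries towards the choroid. The exception was miR-214-5p at 1.42 to 3.37 RPM (edgeR adjusted p = 0.152). Its log2 ratio in OIR, -1.01, fell under 2-fold with other scalings. These gave -0.93 with TMM library sizes and -0.97 when scaled to all listed UMIs or to total reads.

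Several abundant choroidal miRNAs belong to more general families. miR-125b-5p stood at 21827 RPM in the CTL retina, 19262 in the OIR retina, 75134 in the CTL choroid and 95388 in the OIR choroid, which made it 3.44-fold and 4.95-fold higher in the choroid. miR-152-3p stood at 938 RPM in the CTL retina, 1411 in the OIR retina, 23104 in the CTL choroid and 29965 in the OIR choroid, or 24.6-fold (24.2 to 25.1) and 21.2-fold (20.9 to 21.6) higher in the choroid. The related miR-148a-3p was 7.32-fold and 5.02-fold higher there, whereas miR-148b-3p, with the same seed, was 1.29-fold and 1.24-fold higher in the retina. miR-27a-3p, a regulator of adipocyte and endothelial genes, stood at 278 RPM in the CTL retina, 523 in the OIR retina, 3449 in the CTL choroid and 6696 in the OIR choroid, and its ratio of 12.4-fold (12.0 to 12.8) and 12.8-fold (12.5 to 13.2) was larger than that of miR-27b-3p at 4.71-fold and 5.81-fold. The neighbours miR-23a-3p and miR-23b-3p repeated this order, at 13.5-fold and 10.6-fold for the former and 4.75-fold and 4.59-fold for the latter. miR-322-5p, which has the seed of miR-16-5p, was 7.78-fold and 8.78-fold higher in the choroid, and miR-16-5p itself 1.15-fold and 1.09-fold.

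Striated muscle and surface epithelium miRNAs were also choroid-high. miR-1-3p, restricted to heart and skeletal muscle, stood at 26.5 RPM in the CTL retina, 30.8 in the OIR retina, 6598 in the CTL choroid and 2929 in the OIR choroid. The choroid was 249-fold (224 to 277) higher in CTL and 95.1-fold (85.2 to 106.4) in OIR. miR-1b, which differs from it by 1 base, reached 20409 RPM, and how reads were shared between them is uncertain. Summed over miR-1-3p, miR-1b and miR-206-3p, which share 1 seed, the choroid was 87.6-fold higher in CTL and 32.4-fold in OIR. miR-206-3p, restricted to skeletal muscle, stood at 63.7 RPM in the CTL retina, 48.9 in the OIR retina, 7893 in the CTL choroid and 2703 in the OIR choroid, with 123.9-fold (116 to 132.7) and 55.2-fold (50.6 to 60.4), and the joint entry of miR-133a-3p and miR-133b-3p at 25.5 RPM in the CTL retina, 26.8 in the OIR retina, 1984 in the CTL choroid and 713 in the OIR choroid. The CTL choroid held the most of each, the OIR choroid less, and both retinas far less than either. Of 8 muscle entries, 6 were past 2-fold towards the choroid in both arms and called by edgeR, against 21.5% and 25.2% of all entries. The cardiac miR-208a-3p and the slow-muscle miR-499-5p were not called (edgeR adjusted p = 0.165 and 0.502), and miR-208a-3p, at 2.17 to 5.69 RPM, stood 1.32-fold and 2.62-fold higher in the retina. The list summed to 37217 RPM in the CTL choroid, 15782 in the OIR choroid, 649 in the CTL retina and 739 in the OIR retina.

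miR-205, of corneal and skin epithelium, stood at 19.1 RPM in the CTL retina, 19.8 in the OIR retina, 1632 in the CTL choroid and 1341 in the OIR choroid, so that the choroid was 85.3-fold (75.4 to 96.8) higher in CTL and 67.7-fold (59.0 to 77.9) in OIR. miR-203a-3p, which drives keratinocyte differentiation, stood at 128.1 RPM in the CTL retina, 137.3 in the OIR retina, 4035 in the CTL choroid and 8278 in the OIR choroid, with a gap that was wider in OIR, at 31.5-fold (30.02 to 33.1) in CTL and 60.3-fold (57.2 to 63.5) in OIR. miR-200a-3p, of a family that keeps cells epithelial, was 44.0-fold and 49.4-fold higher in the choroid. miR-184, abundant in cornea and lens, stood at 1203 RPM in the CTL retina, 2247 in the OIR retina, 5832 in the CTL choroid and 9346 in the OIR choroid, and its edgeR call (adjusted p = 0.00171) was lost without the OIR choroid (0.0954). All 8 members were past 2-fold towards the choroid in both arms and called by edgeR, against 21.5% and 25.2% of all entries. The median log2 ratio was -5.40 in CTL and -5.39 in OIR. The list summed to 15241 RPM in the CTL choroid, 22600 in the OIR choroid, 1444 in the CTL retina and 2496 in the OIR retina.

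Blood cell miRNAs were choroid-high at lower levels. The myeloid miR-223-3p stood at 19.6 RPM in the CTL retina, 56.7 in the OIR retina, 1129 in the CTL choroid and 2039 in the OIR choroid, which put the choroid 57.6-fold (51.0 to 65.4) higher in CTL and 36.0-fold (33.2 to 39.1) in OIR. miR-142-3p, made in all leukocytes, stood at 400.3 RPM in the CTL retina, 681 in the OIR retina, 3009 in the CTL choroid and 2552 in the OIR choroid, and miR-146a-5p, induced by NF-kB, at 271 RPM in the CTL retina, 485.4 in the OIR retina, 5315 in the CTL choroid and 6127 in the OIR choroid. Both the retina and choroid levels of miR-223-3p and miR-146a-5p were higher in OIR. Of 8 leukocyte entries, 6 were past 2-fold towards the choroid in both arms and called by edgeR, against 21.5% and 25.2% of all entries. miR-342-3p was the other way, at 1.52-fold and 1.82-fold higher in the retina (edgeR adjusted p = 0.057). The erythroid miR-451-5p, at 4.08 to 24.9 RPM, was 4.77-fold and 6.10-fold higher in the choroid. edgeR called 3 of 4 erythroid entries towards the choroid, against 25.2% of all entries.

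Pigment epithelial miRNAs did not separate the tissues at 2-fold in both arms. miR-204-5p, needed for barrier and pigment functions of this epithelium and also expressed in Müller cells, stood at 9724 RPM in the CTL retina, 9736 in the OIR retina, 19299.9 in the CTL choroid and 14202 in the OIR choroid. The choroid was 1.98-fold (1.97 to 2.00) higher in CTL and 1.46-fold (1.45 to 1.47) in OIR, and edgeR did not call it (log2 difference -0.79 ± 0.24 (SE), adjusted p = 0.0538). miR-211-5p, which differs from it by 1 base outside the seed, stood at 4369 RPM in the CTL retina, 3368 in the OIR retina, 3409 in the CTL choroid and 2501 in the OIR choroid and leaned to the retina, by 1.28-fold (1.27 to 1.30) and 1.35-fold (1.33 to 1.37) (adjusted p = 0.215, edgeR). Of the 4 entries, edgeR called miR-204-3p alone (adjusted p = 0.0129), where 25.2% of all entries were called towards the choroid. miR-204-3p stood at 3.22 to 11.1 RPM, and its call was lost with DESeq2 (adjusted p = 0.311). Among the glial entries, miR-338-3p and miR-219a-5p were not called (edgeR adjusted p = 0.971 and 0.59), and miR-219a-2-3p stood at 1.87 and 2.28 RPM in the retina and 56.7 and 11.5 RPM in the CTL and OIR choroid. From the HOX clusters, whose genes pattern the trunk, miR-10a-5p stood at 1.57 and 1.71 RPM in the retina and 159 and 104 RPM in the choroid. The choroid was 101-fold and 61.1-fold higher. miR-10a-5p and miR-10b-5p were the 2 members called of 4 tested, where 25.2% of all entries were called towards the choroid.

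**Figure D3:**
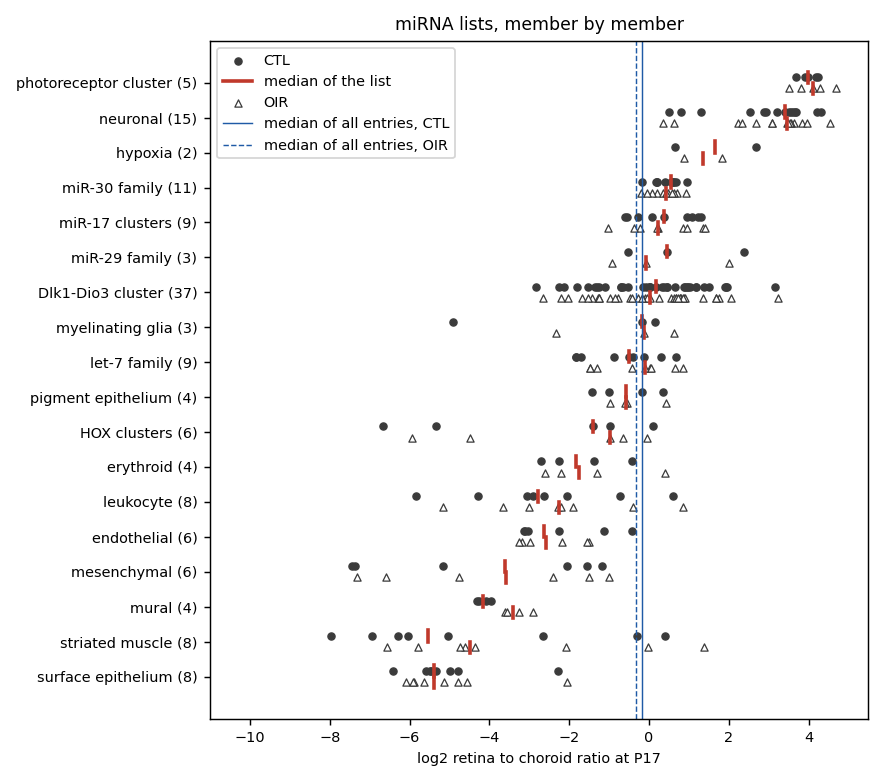
Log2 retina to choroid ratio at P17 of every listed member of the miRNA lists in CTL (filled circles) and OIR (open triangles), with the list median in red, the number of entries in brackets and the median of all entries as blue lines. All 5 photoreceptor members lie above 3.5, and all 8 surface epithelium members lie below -2.

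Among the let-7 family, which accumulates as cells differentiate, members differed in direction. let-7c-5p stood at 9908 RPM in the CTL retina, 7652 in the OIR retina, 35114 in the CTL choroid and 18951 in the OIR choroid, or 3.54-fold and 2.48-fold higher in the choroid. let-7b-5p and let-7i-5p behaved alike, at 3.56-fold and 2.76-fold for the former and 3.24-fold and 2.77-fold for the latter. By contrast let-7f-5p stood at 42574 RPM in the CTL retina, 38107 in the OIR retina, 46429 in the CTL choroid and 36473 in the OIR choroid, and let-7g-5p was 1.59-fold and 1.57-fold higher in the retina (edgeR adjusted p = 0.0578). Thus 3 of 9 members were past 2-fold towards the choroid in both arms and called, where 21.5% and 25.2% of all entries were. The summed family was 1.72-fold higher in the choroid in CTL and 1.38-fold in OIR. Without the CTL choroid the call of let-7b-5p was lost (edgeR adjusted p = 0.0623). Several let-7 members differ by 1 base, and how the authors' alignment shared reads between them is uncertain.

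The miR-29 family, which represses collagens and other matrix genes, split. miR-29c-3p stood at 19577 RPM in the CTL retina, 22686 in the OIR retina, 3766 in the CTL choroid and 5602 in the OIR choroid, so that the retina was 5.198-fold (5.15 to 5.25) higher in CTL and 4.05-fold (4.01 to 4.09) in OIR (edgeR adjusted p = 0.0012). miR-29a-3p, which differs from it by 1 base, stood at 4484 RPM in the CTL retina, 4539 in the OIR retina, 6411 in the CTL choroid and 8588 in the OIR choroid, 1.43-fold and 1.89-fold higher in the choroid. The edgeR call of miR-29a-3p (adjusted p = 0.0375) was lost without the arm term (adjusted p = 0.0618). miR-29b-3p, which sits beside both in GRCr8, was not called (edgeR adjusted p = 0.554). The list median was 0.44 in CTL and -0.07 in OIR, the latter at 0.01 with TMM library sizes.

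All 11 listed members of the miR-30 family stayed within 2-fold in both arms. miR-30e-5p, the most abundant, stood at 20532 RPM in the CTL retina, 22373 in the OIR retina, 15614 in the CTL choroid and 15934 in the OIR choroid. Of the 11, edgeR called miR-30b-5p and miR-30d-5p in the retina's direction (adjusted p = 0.0282 and 0.0427), where 21.3% of all entries were called. Both calls were lost without the arm term (adjusted p = 0.0827 and 0.0501). Of 9 entries of the miR-17 clusters, which promote proliferation, edgeR called 4 in the retina's direction (miR-19a-3p, miR-19b-3p, miR-92a-3p and miR-106b-5p). It called 1 in the choroid's direction (miR-93-5p). Of all entries, 21.3% were called towards the retina and 25.2% towards the choroid. The list median was 0.39 in CTL and 0.23 in OIR. The edgeR call of miR-93-5p (adjusted p = 0.0283) was lost without the arm term (adjusted p = 0.0706). Those of miR-19a-3p and miR-19b-3p (adjusted p = 0.0117 and 0.0118) were lost in refits without the OIR retina or the CTL choroid, which also had no arm term. The calls of miR-92a-3p (adjusted p = 0.0152) and miR-106b-5p (adjusted p = 0.00807) were each lost on leaving out any 1 of 3 libraries, the OIR retina and the OIR choroid among them.

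The imprinted Dlk1-Dio3 cluster had shares past 2-fold near those of all entries, but larger shares of edgeR calls. Of 37 entries, 6 were past 2-fold towards the retina and 7 towards the choroid in both arms, where 14.3% and 21.5% of all entries were. edgeR called 12 of the 37 each way, where it called 21.3% of all entries towards the retina and 25.2% towards the choroid. Of these 24 calls, 10 were lost on leaving out the CTL retina, the OIR retina or the CTL choroid alone, 8 without the OIR choroid and 6 with DESeq2. miR-323-3p, which led the retina side, stood at 989 RPM in the CTL retina, 767 in the OIR retina, 110.2 in the CTL choroid and 80.8 in the OIR choroid, a ratio of 8.97-fold (8.51 to 9.46) and 9.49-fold (8.83 to 10.2). miR-379-5p and miR-411-5p were 2.90-fold and 2.47-fold higher in the CTL choroid and 2.69-fold and 2.37-fold in OIR. The list median was 0.19 in CTL and 0.03 in OIR, the latter at -0.03 when reads replaced UMIs. Of the 9 miRNAs that the study itself picked for angiogenesis on these samples, 6 were past 2-fold towards the choroid in both arms and called by edgeR (miR-1b, miR-126a-5p, miR-199a-5p, miR-125b-5p, miR-143-3p and miR-148a-3p). Of all entries, 21.5% were past 2-fold that way and 25.2% were called. miR-96-5p was towards the retina, and miR-30a-5p and miR-335 were near even. Since the 9 were chosen on the same libraries, their count is not independent evidence of a direction.

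The arms gave much the same tissue ratio. Among the 105 entries past 1000 RPM, the median size of the difference between the log2 ratios of the arms was 0.25, and 7 differed by over 1. These were miR-133a-3p/miR-133b-3p, miR-1b, miR-1-3p, miR-3571, miR-143-3p, miR-206-3p and miR-142-3p, each with a narrower gap in OIR. For the muscle entries the OIR choroid stood below the CTL choroid, with miR-1b at 20409 RPM in CTL and 9155 RPM in OIR. For miR-143-3p and miR-142-3p the retina was also higher in OIR. With 1 library per group, a difference between the arms was not tested. At the other end, miR-26b-5p, an even entry, stood at 24436 RPM in the CTL retina, 25853 in the OIR retina, 24942 in the CTL choroid and 24686 in the OIR choroid, and miR-335, miR-103-3p/miR-107-3p, miR-30a-3p, miR-338-3p, miR-16-5p, let-7f-5p and miR-3596d were at most 1.15-fold apart in either arm.

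Some entries mirror an abundant miRNA on the opposite strand. The sequence of miR-3553 contains the reverse complement of miR-183-5p over 22 bases, and its UMIs came to 3.75%, 3.65%, 3.75% and 3.69% of those of miR-183-5p in the CTL retina, OIR retina, CTL choroid and OIR choroid. miR-9b-3p, which counts in the neuronal list, overlaps miR-9a-5p in this way over 18 bases and came to 2.45% to 3.24% of it in the 4 libraries. miR-3588 stands opposite miR-125b-5p over 22 bases, at 2.96% to 3.59% of it. miR-3571 stands opposite miR-1-3p over 21 bases, at 55.6% and 48.0% of it in the CTL and OIR retina and 15.2% and 13.5% in the choroid. The ratios of miR-3553 and miR-9b-3p, at 15.1-fold and 12.2-fold higher in the CTL retina, ran close to those of their partners. Whether the counting used strand is not given in the sources used here, so reads of these entries and of their partners cannot be told apart. Without the lower entry of every such pair, 13.6% of entries were past 2-fold towards the retina in both arms and 20.7% towards the choroid, an alternative chosen after the data were seen.

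The same markers separated the tissues at P14. There the log2 ratio of miR-182 was 3.56 in CTL and 2.28 in OIR, that of miR-126a-3p was -3.11 and -3.43, and that of miR-199a-3p was -7.23 and -7.19. miR-124-3p stood at 4.02 in CTL and 1.33 in OIR at P14, against 4.22 and 4.54 at P17. In the P14 OIR choroid miR-182 reached 56227 RPM, against 17584 RPM in the P14 CTL choroid. The P7 CTL pair stood apart from the others, with log2 ratios of 0.19 for miR-182, -0.70 for miR-126a-3p and -1.10 for miR-199a-3p, where the P7 OIR pair gave 1.78, -4.42 and -7.39. In that pair the photoreceptor list had a median of 0.57 and the endothelial list of -0.68. The P7 libraries therefore entered no test. edgeR's test of whether the tissue difference at P17 differed from that at P14 called 0 of 698 entries in either direction (0% each), with 39 at an unadjusted p under 0.05 and a smallest adjusted p of 0.361. DESeq2 called 1, miR-883-3p (adjusted p = 0.0142), named after its value was seen, which had 13 to 27 UMIs in the P17 libraries, 210 and 38 in the CTL and OIR choroid of P14 and was not listed in either P14 retina.

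**Figure D4:**
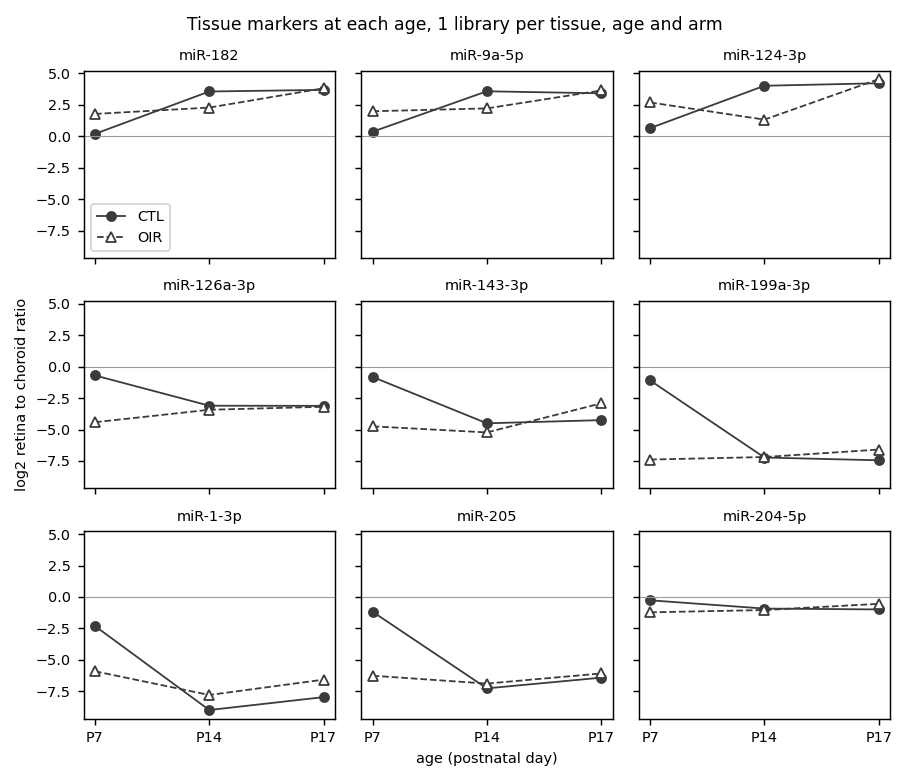
Log2 retina to choroid ratio of 9 tissue markers at P7, P14 and P17 in CTL (filled circles, solid line) and OIR (open triangles, dashed line), 1 library per tissue, age and arm. At P17 the arms differ most for miR-1-3p and miR-143-3p, and the P7 CTL point lies nearer to 0 than the P7 OIR point in each panel.

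tRNA-derived reads differed by isotype. In the same unit, UMIs per 1000000 miRNA UMIs, all tRNA entries together stood at 7995 in the CTL retina, 5926 in the OIR retina, 36052 in the CTL choroid and 32088 in the OIR choroid. The choroid was 4.51-fold (4.48 to 4.54) higher in CTL and 5.41-fold (5.37 to 5.46) in OIR. Glycine tRNAs, a frequent source of tRNA fragments, stood at 2695 and 2169 in the CTL and OIR retina and 28109 and 26380 in the choroid, or 10.4-fold (10.3 to 10.5) and 12.2-fold (12.0 to 12.3) higher there. Valine tRNAs stood at 417 in the CTL retina, 217 in the OIR retina, 3029 in the CTL choroid and 1094 in the OIR choroid, or 7.27-fold (7.07 to 7.48) and 5.04-fold (4.81 to 5.27) higher there. Serine tRNAs, at 36.3 to 132.3 units, were also choroid-high, or 3.65-fold (3.30 to 4.04) and 2.78-fold (2.47 to 3.14) higher there. With glycine and valine set aside, the rest stood at 4883 (CTL) and 3540 (OIR) in retinas against 4915 and 4615 in choroids, so the CTL tissues were within counting error of each other (choroid to retina 1.01-fold, 0.996 to 1.02) and the OIR choroid was 1.30-fold higher. With serine also set aside, the CTL retina was 1.01-fold (1.003 to 1.025) higher and the OIR choroid 1.29-fold. This sum holds isotypes that went both ways in CTL, such as glutamine (2.18-fold towards the retina) and lysine (1.33-fold towards the choroid). Of 22 isotype groups, 18 were within 2-fold in both arms, and the median log2 ratio was 0.13 in CTL and 0.02 in OIR.

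Within glycine the anticodons split. Entries with GCC were 9.38-fold higher in the choroid in CTL and 11.1-fold in OIR, and those with CCC 25.7-fold and 32.3-fold, while those with TCC stood at 27.8 to 44.1 units in all 4 libraries. Within valine, AAC and CAC entries were at least 5.33-fold higher in the choroid in both arms, and TAC entries 1.23-fold in both arms. Aspartate and lysine, which exceeded valine except in the CTL choroid, stood at 882 to 1468 and 732 to 1323 units. The highest ratio towards the retina was that of glutamine in CTL, at 176 against 81.0, and that of leucine in OIR, at 143.7 against 104.1. 1 GCC glycine entry and 1 CCC glycine entry took 40.4% and 13.4% of all tRNA UMIs in the CTL choroid, and since tRNA copies of 1 anticodon are near-identical, which gene gave the reads is uncertain. At P14 the tRNA level was 112697 in the CTL choroid and 38927 in the OIR choroid, so the P17 choroids were not the highest of the series. Reads too short to keep made up 9.22% and 14.2% of the CTL and OIR retina and 12.5% and 20.1% of the choroid, and their part in the tRNA levels was not tested. A further 22 of the 311 tRNA entries carried an Ensembl identifier only and were kept as 1 group.

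**Figure D5:**
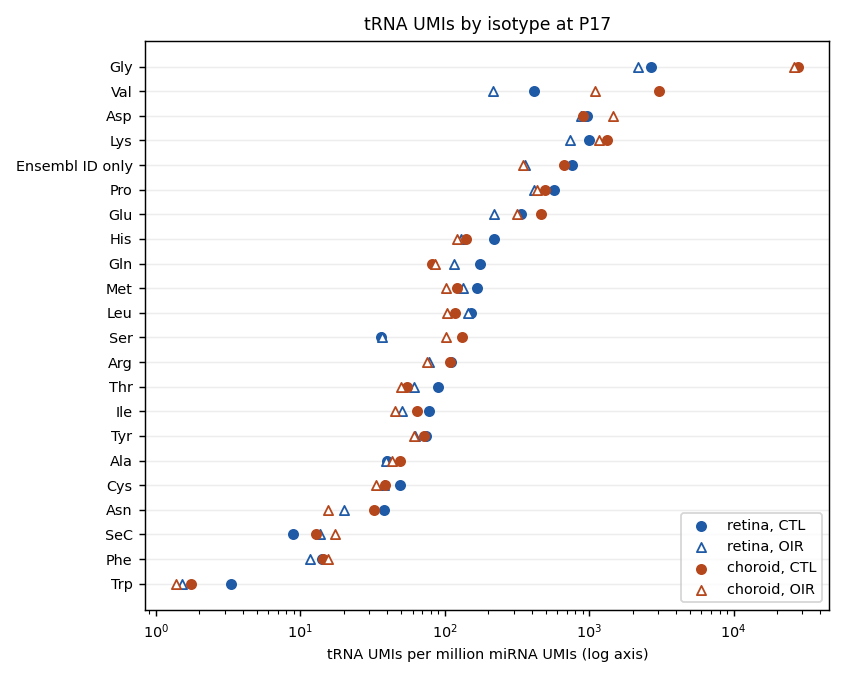
tRNA UMIs per 1000000 miRNA UMIs by isotype on a log axis in the CTL (circles) and OIR (triangles) retina (blue) and choroid (orange). Glycine, at 26380 and 28109 in the choroid and 2169 and 2695 in the retina, and valine show the gap, and most other isotypes overlap between the tissues.

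piRNA entries were close in sum but not entry by entry. They summed to 2189 and 1975 UMIs per 1000000 miRNA UMIs in the CTL and OIR retina and 1817 and 2029 in the choroid. In CTL, 17 of 87 entries were past 2-fold towards the retina and 15 towards the choroid, and in OIR 11 and 26 of 90, with a median log2 ratio of 0.09 in CTL and -0.41 in OIR. Of 78 entries with a ratio in both arms, 10 were past 2-fold towards the retina and 13 towards the choroid in both. The balance of the strands of a hairpin was also much the same in both tissues. Of 21 hairpins with both strands at 100 RPM or more in each tissue, 2 differed by over 1 on the log2 scale in both arms. For miR-376b the 5p strand made up 34.9% and 37.8% of its UMIs in the CTL and OIR retina and 61.0% and 62.4% in the choroid. For let-7i the 5p strand was 59.5 to 77.8 times its 3p strand in retinas against 143.8 to 200.3 times in choroids. The next, miR-140, miR-434 and let-7d, differed by 0.50, 0.45 and 0.15 on that scale in the arm with the smaller difference.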

How the data were processed

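Small RNA was sequenced from pools of several rats, with 1 library per tissue, age and arm. Per the labels, libraries were made with the Qiaseq miRNA chemistry, which adds UMIs, whereas the study's methods name a Truseq small RNA kit. The files list UMIs and reads in separate columns. Libraries were processed, per the labels, with bcl2fastq 2.20, cutadapt and Bowtie against Rnor_6.0, and the deposited values are counts of UMIs and of reads per miRNA, piRNA and tRNA entry, not normalized, with entries under 10 UMIs not listed. UMIs were divided by the miRNA UMIs of the library. Ratios carry exact conditional (Clopper-Pearson) 95% intervals, for counting error only. Tissue was tested across the P17 libraries with edgeR 4.0.16 (R 4.3.3; quasi-likelihood test, TMM, arm as covariate, Benjamini-Hochberg at 0.05, at least 10 UMIs in 2 libraries), after a check on simulated counts. The age test used the P14 and P17 libraries. DESeq2 1.42.0, other scalings, thresholds and filters, and leaving out each library were the alternatives. In the tissue test, leaving out a library also dropped the arm term. miRNAs were named for abundance, size of the ratio with a level of 1000 RPM, difference between the arms, evenness, or membership of a list, and others are said to be chosen after their values were seen. Members and lists were chosen with earlier results of these data known. Tables of other RNA classes were not used here.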

Additional observations from a re-analysis of the deposited data

Results flagged for a closer look

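For 8 miRNAs the retina to choroid ratio had opposite signs in CTL and OIR, with counting intervals that excluded 1 in both arms. Of these, 7 came from the named miRNAs, 163 of which edgeR tested, and miR-190b-3p was added after its value was seen. The difference was not tested, since each arm has 1 library per tissue. On the log2 scale, let-7a-5p stood at -0.41 in CTL and 0.019 in OIR, let-7f-5p at -0.13 and 0.063, and miR-26b-5p at -0.030 and 0.067. miR-219a-5p stood at -0.16 in CTL and 0.63 in OIR, and miR-486, on few UMIs, at -0.44 and 0.41. Going the other way, miR-29b-3p stood at 0.44 in CTL and -0.066 in OIR, and miR-338-3p at 0.15 and -0.12. These 7 lie within 2-fold in both arms. The last, miR-190b-3p, stood at 1.84 in CTL and -1.18 in OIR, on 23 to 121 UMIs. TMM library sizes shifted the log2 ratios by -0.13 in CTL and 0.08 in OIR, and several ratios here are no larger than that. With them miR-29b-3p stood at 0.01 in OIR and no longer changed sign.

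Reads assigned to miRNA hairpins outside the mature sequences, which entered no comparison above, also differed between the tissues. They came to 4695 and 4312 per 1000000 miRNA reads in the CTL and OIR retina and 616 and 570 in the choroid. The retina was thus 7.62-fold (7.46 to 7.78) higher in CTL and 7.57-fold (7.37 to 7.77) higher in OIR.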

How the results depend on the processing

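Depth did not limit the abundant miRNAs, with 10124189 or more miRNA UMIs in each library, but entries near 10 UMIs rest on bounds. With 1 pool per group, spread between animals was not measured. A 4-fold threshold was passed towards the retina by 7.68% of entries in CTL, 7.08% in OIR and 6.503% in both arms, and towards the choroid by 13.4%, 14.02% and 12.7%. Asking for 100 UMIs in either library of a pair left 17.7% of all entries higher in the OIR choroid, or 30.05% of the 416 entries that qualified. Leaving out 1 library gave 99 to 112 edgeR calls towards the retina and 116 to 225 towards the choroid, from fewer samples. Without the arm term, which sets the retina beside the choroid of the same arm, edgeR called 120 and 192, of which 279 were shared. DESeq2 shared 243 of the edgeR calls between the tissues, and it called 1 entry in the comparison of P17 with P14, with 49 at an unadjusted p under 0.05. The log2 ratio of all tRNA UMIs moved from -2.17 to -2.24 in CTL and from -2.44 to -2.49 in OIR with reads in place of UMIs, and to -2.16 and -2.40 per total read. Scaled to tRNA UMIs, the log2 ratio of serine turned to 0.31 in CTL and 0.96 in OIR and that of valine to 0.10 in OIR, since glycine took most of the choroid's tRNA UMIs. Among the edgeR differences of named miRNAs, 1345 of the values kept their direction and side of the threshold, 99 lost the call, 23 gained it and 0 turned.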
